A study of Mus musculus with 4 samples.

Results

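Methylation was measured in 8 windows of the mouse genome, each named for an imprinted gene whose maternal copy carries the methylation: Kcnq1ot1, Igf2r, Grb10, Plagl1, Peg3, Snrpn, Mest and Peg10. The windows were fixed regions in mm9 coordinates (NCBIM37, the build whose chromosome lengths fit the files), and all 8 held covered positions in each of the 4 libraries. A cytosine position was used when it had at least 5 calls, which left 211 of 959847 positions in iPSCs, 244 of 1393990 in NESTIN-GFP precursors, 205 of 909200 in iPSC-DA and 197 of 904699 in mdDA neurons. The method was RRBS, in which DNA is cut with MspI at CCGG, converted with bisulfite and sequenced, so that only CpGs near such sites are read. The iPSCs (strain Pitx3 Gfp/+) had been made from E14.5 embryonic fibroblasts with retroviral Oct4, Klf4, Sox2 and cMyc, and the iPSC-DA neurons (Pitx3 Gfp/+) were GFP-sorted after 4 weeks of differentiation started on MS5 stromal cells. The mdDA neurons were dopaminergic neurons sorted by the same Pitx3-driven GFP from E14.5 midbrain of Pitx3 Gfp/+ embryos, so that all 3 of these libraries carry 1 Gfp allele in place of Pitx3. The precursors were derived in culture from iPSCs of another reporter strain (Nestin Gfp/+) and were collected after 14 days of differentiation. They thus came from another line than the Pitx3 Gfp/+ iPSCs measured here. Their sample label calls them neurons, and the name from the study's methods is used here. The sources used here do not say which iPSC clone was sequenced. There was 1 library per group, so that no spread between replicates is known, and every interval and test below covers at most counting error. The intervals of window levels and of their differences take every call as independent. A read often gives calls at several neighbouring positions, so that these intervals are too narrow even for counting error.

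At an imprinted gene, the copy from the mother and the copy from the father carry different marks and usually only 1 of them is expressed. The windows mark germline differentially methylated regions, where methylation is laid down in the egg, spared from the erasure in the early embryo and kept on the maternal copy in nearly all somatic tissues, so that calls from both copies average near 50%. Many of these genes act on growth, and the same regions are known to lose or gain methylation in cultured pluripotent cells.

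Only for Plagl1 could the window be tied to a sequence. RefSeq promoter sequences (GRCm38.p6, from 250 bases before to 50 after the start) were listed for 7 of the 8 genes, and the CpG pattern of each was slid over the covered positions. The Plagl1 promoter was placed at a single offset, with 22 of 22 covered positions on its CpGs, at mm9 chromosome 10 from 12810388 to 12810687. When 20 kb at each side were added, a choice made after seeing the data, the Grb10 promoter was placed outside its window, on the minus strand of chromosome 11 from 11937374 to 11937673, with 66 of 66 covered positions on CpGs. The other members' promoters were not placed. These sequences are shown because they mark, within a member, an intermediate region inside a window (Plagl1) and the neighbouring region of another kind (Grb10). Each line gives the 250 bases before the transcript start, 5′ to 3′ on the strand of the gene, at GRCm38 chr10:13090582-13090831 (plus strand) and chr11:12037421-12037670 (minus strand). Capitals mark the CpGs measured in at least 1 library, 7 of 19 for Plagl1 and 35 of 40 for Grb10.
Plagl1: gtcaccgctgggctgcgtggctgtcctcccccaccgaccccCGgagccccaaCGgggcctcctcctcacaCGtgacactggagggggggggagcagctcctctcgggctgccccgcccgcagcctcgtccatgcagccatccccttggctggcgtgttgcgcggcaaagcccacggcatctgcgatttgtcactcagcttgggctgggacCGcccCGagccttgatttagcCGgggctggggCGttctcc
Grb10: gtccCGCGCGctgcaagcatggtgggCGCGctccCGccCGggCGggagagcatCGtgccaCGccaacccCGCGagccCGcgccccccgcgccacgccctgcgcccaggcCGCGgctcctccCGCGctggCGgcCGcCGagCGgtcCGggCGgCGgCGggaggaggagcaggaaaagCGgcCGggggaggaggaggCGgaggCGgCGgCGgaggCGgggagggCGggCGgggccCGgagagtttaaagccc
The MspI motif CCGG, which reads the same on both strands, occurred 2 times in the 300 bases of Plagl1 and 4 times in those of Grb10, and it occurs in 52.8% of the 32851 RefSeq promoters of this length.

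The windows were near 50% in mdDA neurons and near 0% in iPSCs. In mdDA neurons, the methylation level, taken as methylated calls over all calls of a window, ran from 45.3% to 57.4% with a median of 50.2% over the 8 windows. In iPSCs it ran from 3.67% to 9.25% with a median of 5.04%, and no window of the iPSCs overlapped one of the mdDA neurons. The NESTIN-GFP precursors covered a broader range, from 0.175% to 32.6% with a median of 21.4%. The iPSC-DA neurons ran from 29.96% to 63.7% with a median of 42.6%. They thus spread to both sides of the mdDA range, and the SD between windows was 12.0 points in iPSC-DA and 4.45 points in mdDA neurons. Taking 35% to 65% as intermediate, 8 of 8 windows were intermediate in mdDA neurons, 7 of 8 in iPSC-DA and 0 of 8 in precursors and iPSCs. In iPSC-DA neurons Igf2r (35.2%) and Peg10 (37.2%) lay just inside the lower bound, and the count was 3 with a band of 40% to 60% and 5 at positions shared by all 4 libraries. As unweighted means of positions, 3 precursor windows were intermediate.

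**Figure D1:**
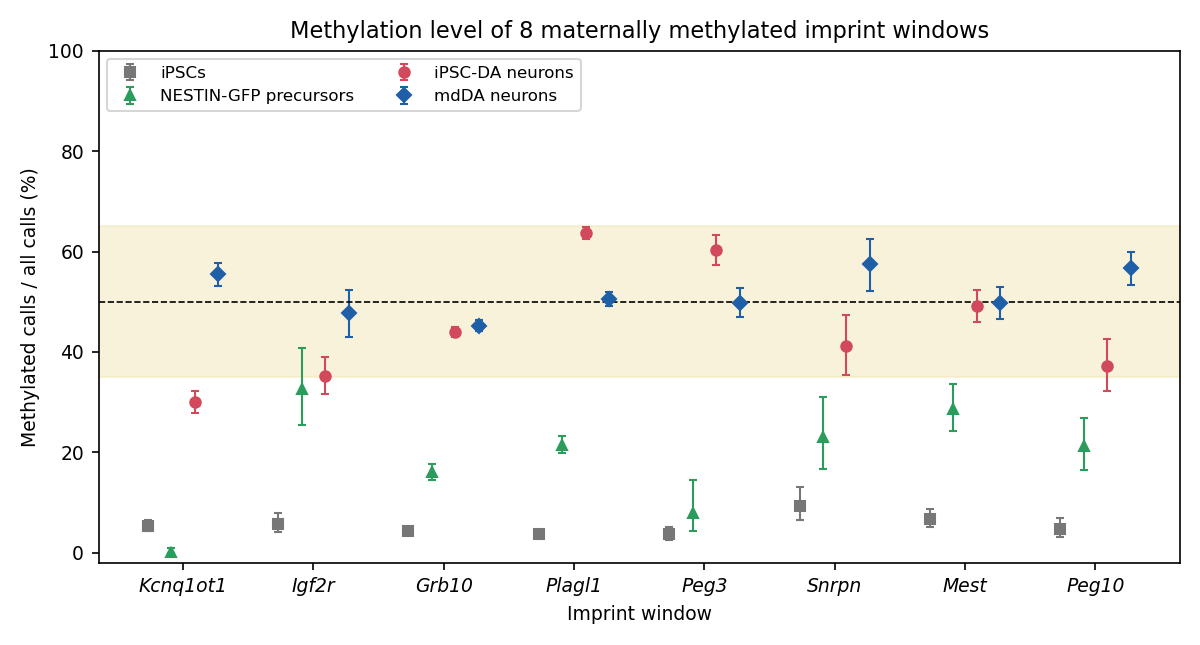
Methylation level (methylated calls over all calls, %) of the 8 windows, with 1 point per library and bars for the Wilson 95% interval of counting error. The dashed line is at 50% and the shaded band runs from 35% to 65%. All mdDA values lie in the band, all iPSC values lie under 10%, and the iPSC-DA value of Kcnq1ot1 (29.96%) lies below the band.

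The same order was seen at single positions. Of the window positions, 71.6% were at 35% to 65% in mdDA neurons (141 of 197), and 5.34% of all positions of that library were. In iPSC-DA neurons, the share was 45.9% (94 of 205), beside 17.2% of all positions. Neighbouring positions share reads and are no replicates, and Grb10 (91) and Plagl1 (43) held most of the mdDA positions. The shares in precursors and iPSCs were 10.7% (26 of 244) and 2.84% (6 of 211), beside 6.00% and 8.10% of all positions. The windows thus stood furthest from the rest of the library in mdDA neurons. There, 0 window positions were under 20% and 4 were at 80% or more, while in iPSCs 189 of 211 were under 20%, 88 of them at 0%. Low levels in iPSCs were not particular to the windows. The mean level within CpG clusters (runs of covered positions, defined below) was 6.03% in iPSCs and 9.11% in mdDA neurons.

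Each position was also tested against 50% with a two-sided exact binomial test, adjusted with the Benjamini-Hochberg method over all positions of its library. In mdDA neurons, 27 window positions were above 50% and 47 below it at an adjusted p under 0.05, and the other 123 of 197 (62.4%) passed on neither side. Over all positions of the mdDA library, 21.3% were above and 66.9% below. In iPSC-DA neurons, 58 were above, 59 below and 88 of 205 (42.9%) on neither side, beside 22.2% above and 55.0% below over all positions. In iPSCs, 0 were above and 193 of 211 below (12.2% and 71.3% over all positions), and in precursors 14 were above and 146 of 244 below (41.7% and 35.8%). A position of few calls cannot pass this test unless it is far from 50%, and the precursors, with a median of 14 calls per used position against 58 to 65 in the other libraries, were the shallowest.

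Part of the low level left in iPSCs sat at the start of reads. MspI reads begin inside the cut site, and the first position of a read was inferred from runs of at least 3 positions of like depth on 1 strand. In the 2 placed promoters, 3 of 3 and 6 of 6 inferred first positions fell in a CCGG. In iPSCs, the level was 17.4% at the 33 inferred first positions in the windows and 1.28% at 102 other positions of the same reads. Over all CpG clusters under 20% in iPSCs, the levels were 17.8% and 1.67%, so that this was not limited to the windows. In mdDA neurons, the first positions of the windows were at 57.1% and the others at 48.4%. Without the inferred first positions, which was tried after the values were seen, the iPSC windows ran from 0.176% to 7.38% with a median of 2.14%. What raises the first positions was not tested.

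The windows of mdDA neurons and iPSCs differed at most positions. The libraries were compared position by position with Fisher's exact test (two-sided), adjusted over all positions of the genome with at least 5 calls in both, and a position was called at an adjusted p under 0.05 and a difference of at least 20 points. This compares libraries and not conditions, and neighbouring positions are often read by the same molecules. Higher levels in mdDA neurons than in iPSCs were called at 173 of 195 window positions and lower levels at 0, beside 9.05% and 1.08% of all positions tested. Peg3 (7 of 7) and Peg10 (10 of 10) were called at every shared position, Grb10 at 84 of 90 and Snrpn, where most positions had under 20 calls, at 4 of 9. The iPSC-DA neurons were called higher than iPSCs at 157 of 198 window positions and lower at 0, beside 26.6% and 1.20%. In that comparison the share of called positions ran from 33.3% in Snrpn (3 of 9) to all of them in Peg3 and Mest (7 of 7 each).

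The DA neuron libraries differed in both directions. Of 193 window positions, 13 were called higher and 31 lower in iPSC-DA neurons than in mdDA neurons. Over all positions tested, 17.8% were called higher and 2.46% lower, so that the windows held fewer higher calls (6.74%) and more lower calls (16.1%) than the library as a whole. Over the shared positions of all windows, the level was 49.9% in iPSC-DA and 48.9% in mdDA neurons, a difference of 0.936 points (95% CI -0.0379 to 1.91). This pool weights each position by its calls. The mean of the window levels, which weights the 8 windows equally, was 45.1% in iPSC-DA and 51.6% in mdDA neurons. In levels weighted by calls, Kcnq1ot1, Peg10, Snrpn and Igf2r were lower in iPSC-DA neurons, and Plagl1 and Peg3 were higher. Grb10 and Mest differed by less than 2 points in these levels.

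**Figure D2:**
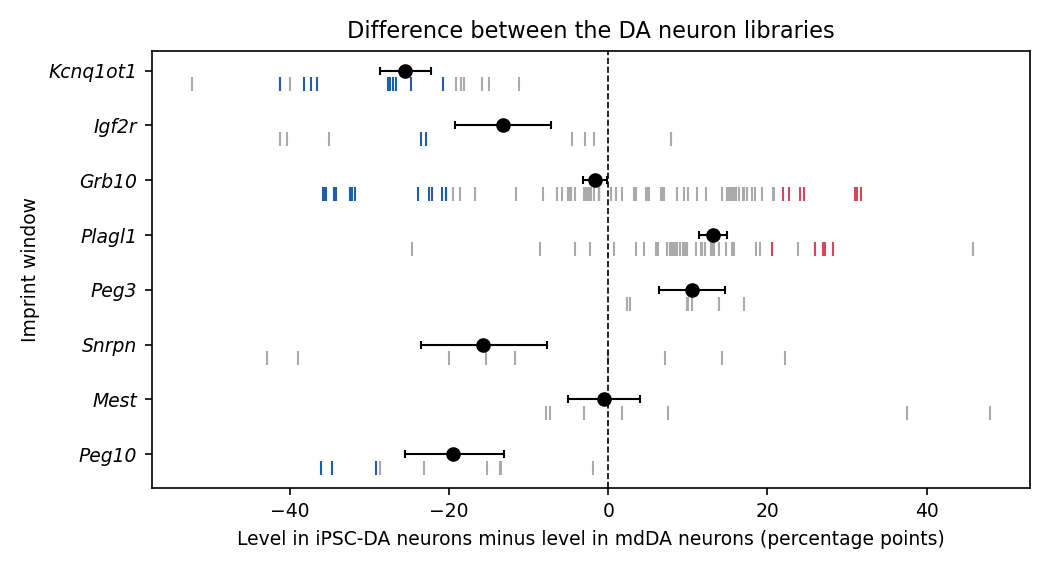
Level in iPSC-DA neurons minus level in mdDA neurons (percentage points) for each window. Black points and bars are the difference over shared positions with its 95% interval of counting error, and the ticks beneath are single positions, red where called higher, blue where called lower and grey where not called. Blue ticks are seen in Kcnq1ot1, Igf2r, Grb10 and Peg10, and red ticks in Grb10 and Plagl1.

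Kcnq1ot1 is a long non-coding RNA made from the paternal copy, started within Kcnq1, which keeps neighbouring genes such as the growth inhibitor Cdkn1c silent on that copy. Its window (chromosome 7 from 150480000 to 150483500) had covered positions from 150481247 to 150482399. The level was 5.31% in iPSCs (1583 calls), 0.175% in precursors (573 calls), 29.96% in iPSC-DA neurons (1612 calls) and 55.5% in mdDA neurons (1809 calls). This window had the lowest value of the precursors and of the iPSC-DA neurons. At positions with at least 5 calls the precursors had 1 methylated call, and with a minimum of 1 call their level was 0.832%. In iPSC-DA neurons, 11 of 19 positions were called lower than in mdDA neurons, 0 were called higher, and all 19 lay lower, with a difference of -25.5 points (95% CI -28.7 to -22.3). At those 11 positions the iPSC-DA levels were 17.9% to 32.7% and the mdDA levels 51.5% to 67.3%, without overlap. The iPSC-DA neurons still lay above the iPSCs, by 24.6 points (95% CI 22.1 to 27.1), with 12 of 19 positions called higher. All 8 positions shared with the precursors were called higher in iPSC-DA neurons, at 24.5% to 46.2% against 0% to 1.43%. This is the member in which the DA neuron libraries differed most.

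Igf2r is the receptor that takes up the growth factor IGF2 for breakdown, and it is expressed from the maternal copy. The window in its intron, where the antisense RNA Airn starts, lies on chromosome 17 from 12933000 to 12937000, with covered positions from 12934456 to 12935243. Its levels were 5.71% in iPSCs (560 calls), 32.6% in precursors (141 calls), 35.2% in iPSC-DA neurons (659 calls) and 47.7% in mdDA neurons (436 calls). Over the 10 positions shared by the DA libraries, iPSC-DA neurons were lower by -13.3 points (95% CI -19.2 to -7.24), and 2 neighbouring positions, 12935102 and 12935111, were called. At the first of them, 39 of 128 calls were methylated in iPSC-DA and 55 of 102 in mdDA neurons. In precursors, 0 of 21 positions passed the binomial test against 50%. The median depth was 5 calls, at which a position cannot pass whatever its level, so that the test could not decide at most of them. The position levels ran from 0% to 100%, with 8 under 20% and 5 at 80% or more. At the 7 positions they shared with all other libraries, the precursors were at 24.6%.

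Grb10 is an adaptor protein that dampens insulin and IGF signalling, expressed from the maternal copy in most tissues and from the paternal copy in neurons. Its window (chromosome 11 from 11924500 to 11927500) was the most densely covered, with 91 to 105 positions per library from 11925631 to 11926884. The level was 4.42% in iPSCs (10175 calls), 16.0% in precursors (1945 calls), 44.0% in iPSC-DA neurons (9286 calls) and 45.3% in mdDA neurons (8525 calls). The DA neuron libraries differed by only -1.65 points over 88 shared positions (95% CI -3.12 to -0.185), but 7 positions were called higher and 15 lower in iPSC-DA neurons. The higher ones lay from 11925850 to 11926800, at 66.2% to 96.9% in iPSC-DA and 44.2% to 72.3% in mdDA neurons. The lower ones lay from 11926435 to 11926884, at 2.83% to 30.3% and 23.2% to 54.3%. A short run was nearly unmethylated in iPSC-DA neurons. At position 11926443, 4 of 92 calls were methylated in iPSC-DA neurons, 43 of 111 in mdDA neurons and 1 of 134 in iPSCs, while at the nearby position 11926409 the DA neuron libraries had 44 of 104 and 34 of 77. The SD of position levels was accordingly 27.3 points in iPSC-DA and 14.4 points in mdDA neurons, although positions high in 1 DA library also tended to be high in the other (Pearson's r 0.798 across the 88 positions, which share reads and are no replicates). To the right of that run, the 7 positions from 11926770 to 11926859 were again higher in iPSC-DA neurons, 1 of them called. As pools of calls, the 2 CpG clusters of the window differed in opposite directions. The cluster from 11925798 to 11925897 was at 82.2% in iPSC-DA and 67.3% in mdDA neurons. The one from 11926188 to 11926472, which holds the nearly unmethylated run, was at 36.8% and 42.2%. Before that run, its iPSC-DA positions lay on both sides of the mdDA levels. In iPSCs and precursors both clusters were between 3.75% and 6.90%.

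**Figure D3:**
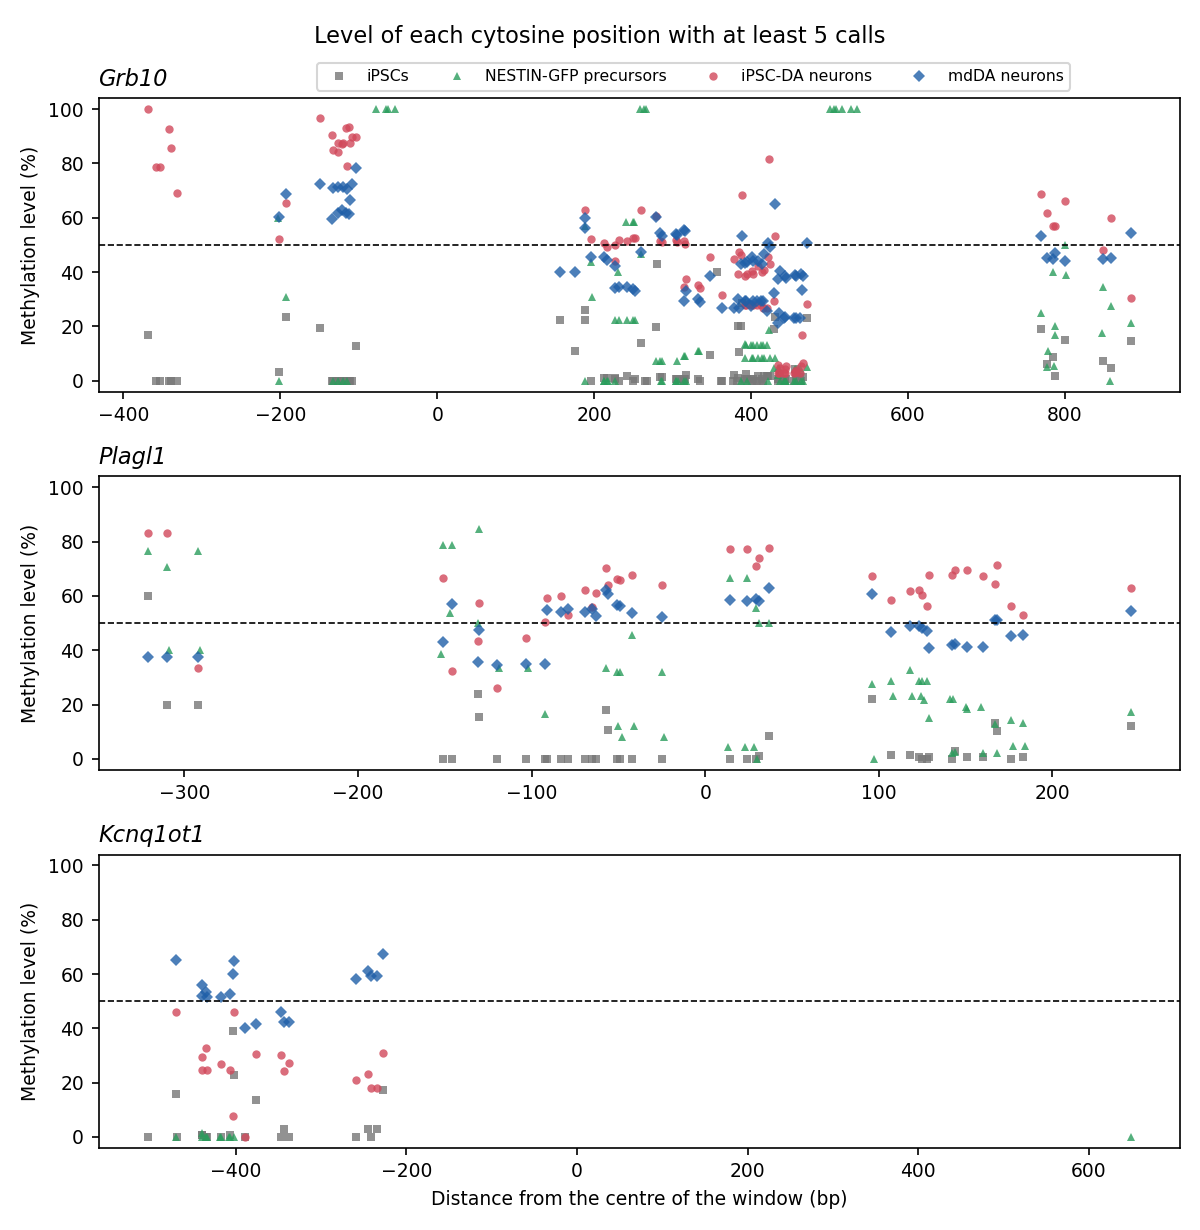
Methylation level (%) of each position with at least 5 calls against its distance from the window's centre (bp), for Grb10, Plagl1 and Kcnq1ot1 in the 4 libraries. In Grb10, iPSC-DA neurons (red) run from above mdDA neurons (blue) at the left to near 0% in a short run right of the centre and lie above them again over 7 positions further right, in Plagl1 they lie mostly above, and in Kcnq1ot1 they lie below.

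Plagl1 is a zinc finger transcription factor, expressed from the paternal copy, that slows cell division and acts within a network of imprinted growth genes. Its window (chromosome 10 from 12809000 to 12812500) had covered positions from 12810429 to 12810995, among them those of the promoter shown above. The level was 3.67% in iPSCs (4525 calls), 21.5% in precursors (2086 calls), 63.7% in iPSC-DA neurons (6876 calls) and 50.6% in mdDA neurons (5548 calls). This was the highest window of the iPSC-DA neurons. They were higher than mdDA neurons by 13.2 points (95% CI 11.4 to 14.9), 39 of 43 positions lay higher, and 6 were called, all within 12810879 to 12810918, where the levels were 67.3% to 71.5% against 41.0% to 51.0%. In mdDA neurons 40 of 43 positions were intermediate and the SD between positions was 8.40 points. In the 300 bases of the promoter the levels were 3.10% in iPSCs, 61.4% in precursors (158 calls, 95% CI 53.6% to 68.6%), 51.7% in iPSC-DA and 46.2% in mdDA neurons. Of the 34 positions of the whole window that precursors and iPSC-DA neurons shared, 20 were called lower in precursors, all from 12810693 on and so past the promoter. A single one, 12810604 within the promoter, was called higher. Chromosome 10 also held more calls in iPSC-DA neurons than in mdDA neurons, by 0.41 in log2 units after scaling to the median autosome (others -0.13 to 0.14), and the Plagl1 window by 0.22. The part of this shift in the Plagl1 levels was not tested.

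Peg3 is a paternally expressed zinc finger protein with known effects on growth and maternal care. Its window (chromosome 7 from 6679000 to 6685500) had covered positions only from 6682973 to 6683039. The level was 3.68% in iPSCs (816 calls), 7.96% in precursors (113 calls), 60.3% in iPSC-DA neurons (1074 calls) and 49.8% in mdDA neurons (1169 calls). All 7 shared positions were higher in iPSC-DA than in mdDA neurons, by 10.6 points over the window (95% CI 6.43 to 14.6), but none reached the 20 points of a call, and 2 had an adjusted p under 0.05. The 7 iPSC-DA positions, from 51.7% to 74.8%, did not overlap those of the precursors, from 0% to 14.3%, and all 7 were called.

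Snrpn encodes a splicing protein, and its paternally active promoter is the control region of the domain lost in Prader-Willi syndrome. Its window (chromosome 7 from 67147000 to 67152000) was thinly covered, with 8 to 10 positions from 67149489 to 67150115. The level was 9.25% in iPSCs (292 calls), 23.1% in precursors (130 calls), 41.2% in iPSC-DA neurons (262 calls) and 57.4% in mdDA neurons (343 calls). The precursor level depended on the positions used. It included 0 of 40 and 0 of 32 methylated calls at 67149489 and 67149537, which were not used in iPSCs or iPSC-DA neurons. At the 2 positions shared by all libraries the precursors were at 33.3%, and as an unweighted mean at 38.0%. Over 9 shared positions, iPSC-DA neurons were at 41.2% and mdDA neurons at 57.0%, a difference of -15.8 points (95% CI -23.5 to -7.69) with 0 positions called. Most of these calls came from 2 positions, 67150086 and 67150115. At these, 33 of 106 and 50 of 108 calls were methylated in iPSC-DA neurons, 70 of 137 and 85 of 138 in mdDA neurons, and 1 of 107 and 18 of 109 in iPSCs.

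Mest, an enzyme of the hydrolase fold family, is expressed from the paternal copy and is linked to growth of the embryo and of fat tissue. Its window (chromosome 6 from 30684000 to 30690500) had 2 separate covered stretches. Its levels were 6.70% in iPSCs (776 calls), 28.7% in precursors (356 calls), 49.2% in iPSC-DA neurons (954 calls) and 49.7% in mdDA neurons (954 calls). The DA neuron libraries differed by -0.524 points (95% CI -5.00 to 3.96), the smallest difference of the 8 windows. These levels weight positions by calls. As unweighted means of positions they were 58.6% in iPSC-DA and 47.7% in mdDA neurons. In the first stretch, at 30685294 and 30685330, 14 of 16 and 13 of 16 calls were methylated in iPSC-DA neurons. In mdDA neurons 6 of 12 and 4 of 12 were, and neither position was called. At the 5 shared positions of the other stretch, the levels were 47.9% and 49.9%. The precursors also depended on the stretch. At 30685471 to 30685509 they had 12 of 13 or 13 of 13 methylated calls at each of 4 positions, which had under 5 calls or none in the other libraries. At the 5 positions of the other stretch that all libraries shared (30689254 to 30689334), they were at 7.55%, and all 5 were called lower than in mdDA neurons.

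Peg10 is a paternally expressed gene derived from a retrotransposon and needed for the placenta. Its window (chromosome 6 from 4696000 to 4700000) had covered positions from 4697355 to 4697490. The levels were 4.78% in iPSCs (502 calls), 21.3% in precursors (240 calls), 37.2% in iPSC-DA neurons (325 calls) and 56.7% in mdDA neurons (850 calls). All 10 shared positions were lower in iPSC-DA than in mdDA neurons, by -19.5 points (95% CI -25.5 to -13.1), and 3 were called, at 33.3% to 44.4% against 68.1% to 73.6%. The iPSC-DA library also had fewer calls here than the mdDA library, by -1.54 in log2 units after the same scaling, and the part of this in the difference was not tested. Over the 10 shared positions the precursors were at 35.9%, and the difference of iPSC-DA neurons from them, 1.35 points, had an interval of -8.56 to 10.8.

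In the precursors, positions called higher than in iPSCs numbered 35 of 144, and 2 were called lower, beside 26.9% and 0.457% of all positions. The share of 24.3% was thus near that of the library. Of the 35, 17 lay in Plagl1, 11 in Grb10 and 5 in Peg10. The shares in the windows lay further from those of the library in the other comparisons. The iPSC-DA neurons were called higher than the precursors at 65 of 149 window positions and lower at 1, beside 6.87% and 9.85% of all positions. The precursors were called higher than mdDA neurons at 0 of 145 and lower at 62, beside 13.5% and 0.808%. Here too, a position under 20% in mdDA neurons could not be called lower. In the unadjusted Fisher's exact test, 93 of these 145 positions had a p under 0.05 in either direction. Levels also differed between the strands of a CpG. Of 107 CpGs with at least 5 calls on each strand in the windows, 36 (33.6%) differed by 20 points or more in precursors. The counts were 1 of 50 in iPSCs, 5 of 46 in iPSC-DA and 6 of 45 in mdDA neurons. The median absolute difference, however, was 10.4 points in precursors, 10.4 in iPSC-DA neurons, 14.1 in mdDA neurons and 0.8 in iPSCs. Precursors were the shallowest library, and the part of depth in the large differences was not tested. At neighbouring positions 4697460 and 4697461 of Peg10, for example, 1 of 22 and 8 of 16 calls were methylated in precursors. Why the strands differ was not tested.

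Few CpG clusters elsewhere were intermediate in mdDA neurons. CpG clusters, used in place of annotated CpG islands, were runs of at least 10 positions covered in both DA libraries with gaps under 100 bp, and 16703 of them were measured in all 4 libraries. Of these, 1.28% (214) were at 35% to 65% in mdDA neurons, 19.5% in iPSC-DA neurons, 6.99% in precursors and 2.34% in iPSCs, and 0 in all 4, which allows a share of up to 0.0180%. An intermediate level was thus rare in mdDA neurons and common in iPSC-DA neurons. Of the 14862 clusters under 10% in iPSCs, 2900 (19.5%) were intermediate in iPSC-DA neurons, the same share as of all clusters. The windows held 5 clusters, of which 4 were intermediate in mdDA neurons and 3 in iPSC-DA neurons. Of the 214 clusters, 73 were under 10% in iPSCs, including all 4 of the windows, and 12 were under 20% in precursors, including Kcnq1ot1 and the larger cluster of Grb10. The median of the 214 clusters was 13.4% in iPSCs, 82.3% in precursors and 72.6% in iPSC-DA neurons, and 136 of them, none in a window, were over 65% in iPSC-DA neurons. Over all clusters the medians were 4.66%, 9.5% and 8.98%. A low level in iPSCs or precursors was thus common among clusters, and rarer among those intermediate in mdDA neurons. No test was made of the windows against the other clusters.

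**Figure D4:**
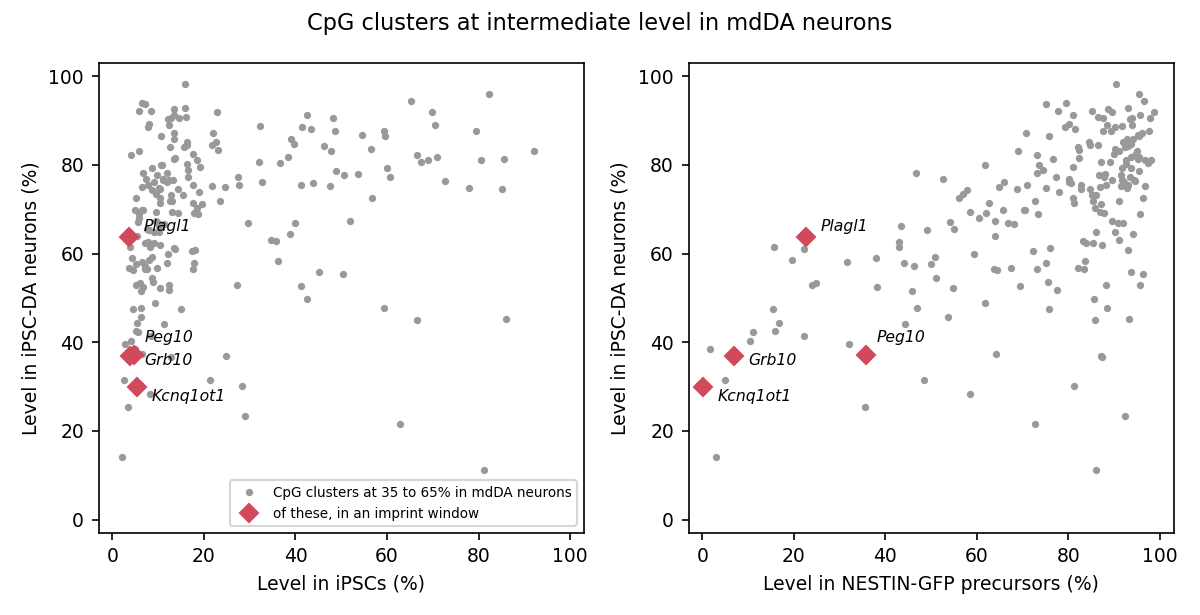
Levels (%) of the 214 CpG clusters at 35% to 65% in mdDA neurons. Both panels have the level in iPSC-DA neurons on the vertical axis, with iPSCs on the horizontal axis at the left and NESTIN-GFP precursors at the right. Red diamonds are the 4 clusters in imprint windows, all under 10% in iPSCs and between 29.96% and 63.7% in iPSC-DA neurons, while most grey points lie higher on both axes of the right panel.

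The region beside the Grb10 window behaved unlike the window. Within 20 kb, 104 to 128 positions per library were covered, all after the window, and at the shared positions they lay from 11936664 to 11938775, around the placed Grb10 promoter. Their level was 5.55% in iPSCs, 22.0% in precursors, 44.5% in iPSC-DA and 6.21% in mdDA neurons. The iPSC-DA neurons were called higher than mdDA neurons at 81 of 103 positions, beside 17.8% over all positions, while 0 of 104 were called between mdDA neurons and iPSCs, with a difference of 0.727 points (95% CI -0.0657 to 1.53). In the 300 bases of the promoter itself, the iPSC-DA level was 41.5% (95% CI 39.9% to 43.2%) and the mdDA level 4.14% (95% CI 3.503% to 4.90%). In iPSC-DA neurons the window and its neighbour were thus alike in level, 44.0% and 44.5%, and in mdDA neurons they were not, 45.3% and 6.21%. The flanks of the other windows held 0 to 40 covered positions per library. After Peg10, 11 positions were at 58.3% in iPSCs and 98.3% in mdDA neurons, and before Peg3, 3 positions were at 80% and 100%. Around Mest the iPSCs were at 39.8% (23 positions) and the mdDA neurons at 54.5% (21 positions). The medians of these positions were 78.3% and 94.9%. At the 15 Mest flank positions shared by the DA libraries, iPSC-DA neurons were at 81.1% and mdDA neurons at 49.7%. Of these, 4 were called higher and 2 lower in iPSC-DA neurons. In the flanks of Igf2r, Peg3 and Peg10 the iPSC-DA neurons lay below mdDA neurons, by -13.3, -23.8 and -9.05 points. After Igf2r 4 positions were at 63.4% in iPSCs and 59.3% in mdDA neurons. Of the iPSC flank positions, 5 of 23 around Mest and 2 of 11 after Peg10 were under 20%. The 2 positions before Kcnq1ot1 were at 14.8% in iPSCs, of 27 calls, and at 65% in mdDA neurons, of 20 calls.

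**Figure D5:**
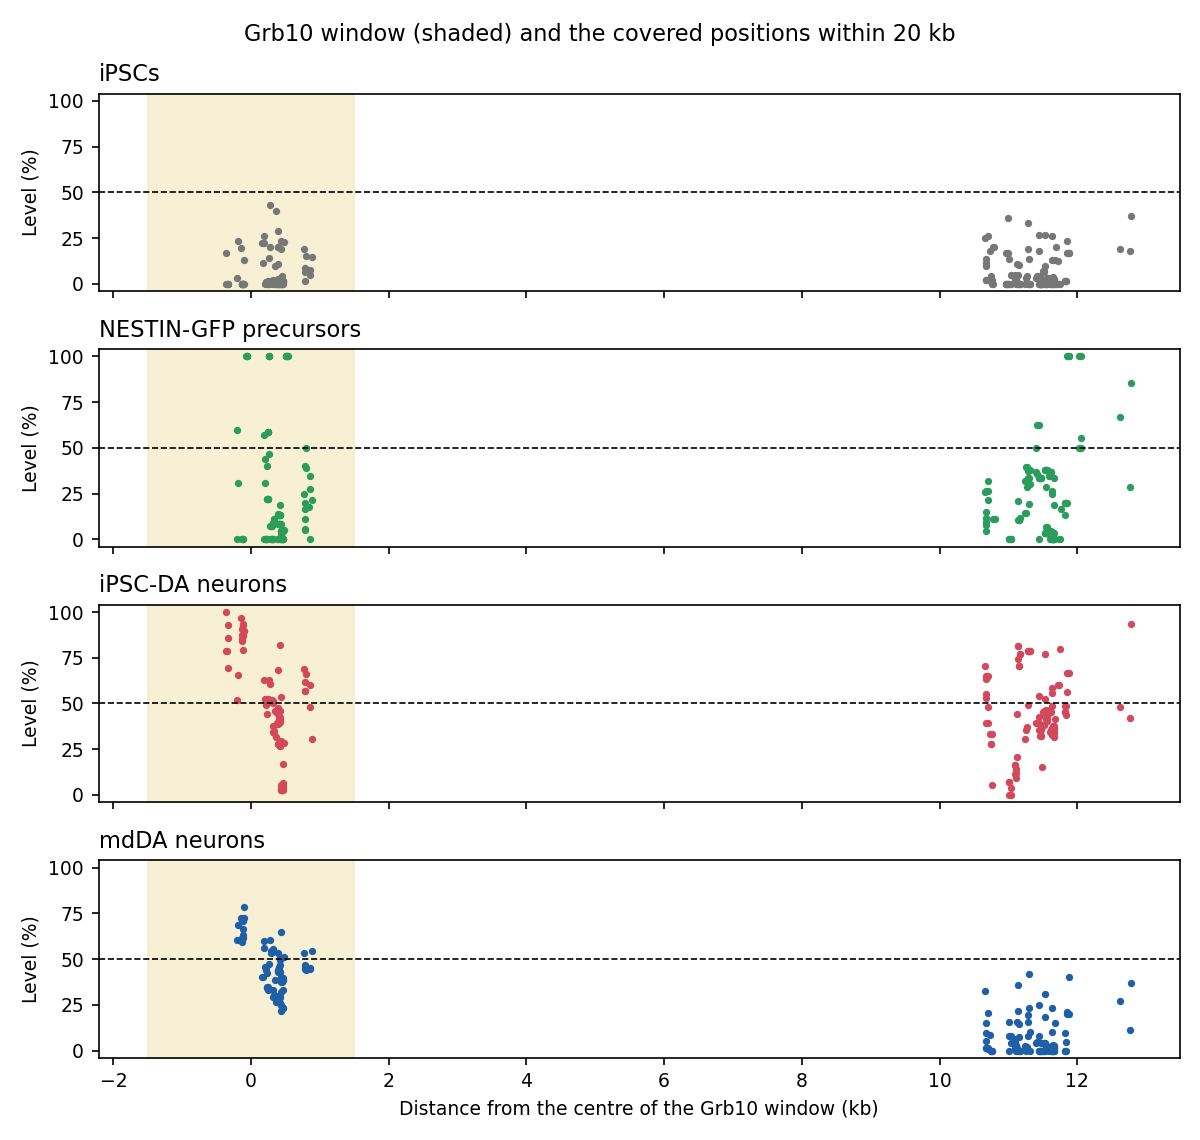
Methylation level (%) of each position with at least 5 calls in the Grb10 window (shaded) and within 20 kb, by distance from the window's centre (kb), with 1 panel per library. Pooled over calls, the window and the neighbouring region are at 45.3% and 6.21% in mdDA neurons and at 44.0% and 44.5% in iPSC-DA neurons. In iPSCs they are at 4.42% and 5.55%. Single iPSC-DA positions scatter widely, from 2.83% to 100% in the window and from 0% to 93.55% beside it.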

How the data were processed

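The 4 RRBS libraries (iPSCs, NESTIN-GFP precursors and the DA neurons of both origins) were all used, with 31419979 to 79648099 calls per library. The reads of 40 bases were processed by the authors with FastQC, Trim Galore 0.3.5 and Bismark 0.10.1 (submitters' processing notes) and with Bareback (methods of the study). The genome build is not given in the sources used here, and the chromosome lengths fit mm9. For each cytosine position the authors deposited the count of methylated and of unmethylated calls, without filter or normalization. The percent of methylated calls was deposited as well and follows from these counts. The strands of a CpG were kept as separate positions.

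A window's level was its methylated calls over all calls at positions with at least 5 calls, with Wilson 95% intervals (Newcombe's for differences). Intervals and tests cover counting error at most, since amplified reads are not independent molecules. Intervals of pooled calls are also too narrow because a read can give calls at several positions. Fisher's exact and exact binomial tests were two-sided, with Benjamini-Hochberg adjustment over all positions of the genome. Window borders came with the list of genes and were not checked against an annotation. All 8 genes of the list are named. The 2 paternally methylated regions named in the closing section came from general knowledge. The members and lists were chosen with earlier results of these data known. The code was tested on simulated data and ran in Python 3.11.15 with numpy 2.4.6, scipy 1.17.1, pandas 2.3.3, numba 0.67.0 and matplotlib 3.10.9. No annotation of mm9 and no expression data were used here. Alternatives were another minimum of calls, merged strands, shared positions, trimmed windows, a coverage ceiling, thinning to the shallowest library, unweighted means, and other bands, differences and cluster sizes. Leaving out the inferred first positions of reads and widening the promoter placement were added after seeing the data.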

Additional observations from a re-analysis of the deposited data

How the results depend on the processing

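No paired analysis was possible because each group had 1 library, and for the same reason no replicate could be left out. No window had a position within 500 bp of its borders or above the coverage ceiling, so that those alternatives changed no level. Of the 32 window levels (8 windows in 4 libraries), 32 stayed within their counting interval with merged strands, 30 with a minimum of 10 calls, 30 with a minimum of 1 call, 27 with thinning, 24 at positions shared by all 4 libraries, 23 without inferred first positions and 19 as unweighted means. The largest moves were in the precursors, where Mest went from 28.7% to 55.1% as an unweighted mean and to 7.55% at shared positions. Precursor windows at 35% to 65% numbered 1 at shared positions, 3 as unweighted means and 1 with a band of 30% to 70%, in place of 0. With a band of 40% to 60%, 3 windows of iPSC-DA neurons were intermediate in place of 7. With the bands of 30% to 70% and 40% to 60%, the share of window positions was 62.9% and 34.6% in iPSC-DA and 83.8% and 54.3% in mdDA neurons, and the wider band gave 16.4% in precursors. A minimum of 1 call gave 51.5% in mdDA neurons. Between the DA neuron libraries, higher calls numbered 29 at 10 points, 3 at 30 points and 8 after thinning, in place of 13, and lower calls 15 at 30 points and 18 after thinning, in place of 31. At 30 points, 23 positions were higher in precursors than in iPSCs, in place of 35. The 2 lower ones became 0 without first positions, 0 at 30 points, 1 with merged strands and 0 after thinning. The position lower in iPSC-DA neurons than in precursors was lost with merged strands (0) and after thinning (0), and 2 sites were higher in precursors than in mdDA neurons with merged strands, in place of 0. A minimum of 10 calls left 7 precursor positions above 50%, in place of 14. With clusters of at least 5 positions, 2 clusters were at 35% to 65% in all 4 libraries, in place of 0. Fewer calls per library limit thinned counts by construction, and the cause of the other changes was not tested. Depth limits the precursors most, whose Peg3, Snrpn and Igf2r windows held 113, 130 and 141 calls.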

Other observations

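The control regions of H19 and of Dlk1-Meg3, imprints that carry methylation on the paternal copy, were almost uncovered and could not be compared as a group with the windows of maternal methylation. In the region of H19, 1 position had at least 5 calls, with a level of 100% in NESTIN-GFP precursors (17 calls) and 50% in mdDA neurons (6 calls). In that of Dlk1-Meg3, the position covered in 3 libraries was at 22.7% in iPSCs (22 calls, 95% CI 10.1% to 43.4%) and 85.7% in mdDA neurons (84 calls, 95% CI 76.7% to 91.6%), and the 4 positions covered in precursors were at 84.1% (69 calls).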
